A study of Mus musculus with 6 samples.

Results

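The genes described here are 43 interferon-stimulated effector genes, taken by symbol from a table of 56691 mouse genes, and every symbol was found. The series holds 6 RNA libraries from 4T1, an established line from a mammary carcinoma of a BALB/c mouse. One group of 3 libraries received vehicle and the other group of 3 received KIRA6 at 1 µmol/L, both for 4 h in fresh medium. KIRA6 is a small molecule that occupies the ATP site of the stress kinase IRE1α and dampens its RNase. No genetic change is named in the labels, and whether a group's 3 libraries are separate cultures is not stated, so each p-value reflects library-to-library spread that may be technical.

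Interferons are secreted proteins that bind receptors on the cell surface and, through Janus kinases, activate STAT proteins. Type I and III interferons bring a complex that holds STAT2 and IRF9 to a DNA element called the ISRE, and interferon gamma acts through a second element called GAS. The genes switched on in this way block viral RNA, label or degrade foreign proteins and attack intracellular vacuoles. Many are also expressed at a low level in tumour cells without added interferon.

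The members fall into 6 subgroups: 4 IFIT genes, 6 OAS genes, 7 GBP and IRG GTPases, 6 RNA sensors, 8 PARP and ubiquitin-like genes, and 12 other effectors. Levels are in FPKM (fragments scaled to exon length and to library size), as the authors deposited them, which makes levels comparable between genes. Fold changes with a standard error (SE) are KIRA6 against vehicle on the scale log2(FPKM + 0.5), which understates the change of low genes. A gene is said to have risen or fallen where limma's adjusted p, taken over all genes tested, was below 0.05.

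KIRA6-treated cells held more RNA of most of these genes. Of the 43 members 30 had a mean of at least 0.5 FPKM and were tested, and 22 of them rose, 0 fell and 8 were not called. No member was lower at an unadjusted p below 0.05 either, and limma-voom on estimated fragments gave the same counts of 22 and 0. Over all 11778 genes tested, 15.6% rose and 7.98% fell, and 23.6% were called in either direction. The balance over all genes turned with scaling. Median-ratio scaling called 1224 genes higher and 1556 lower, and quantile normalization 1132 and 1182; the members called higher were then 22 and 20, and 0 were lower under either. The median log2 fold change was 1.36 over the tested members and 0.16 over all genes tested. Of the 30 tested members 10 had a vehicle mean below 0.5 FPKM, so they passed the minimum only through their KIRA6 libraries. They are Ifit1, Ifit3, Oas1g, Oasl2, Gbp3, Ifih1, Dhx58, Herc6, Parp14 and Xaf1. The counts here and by subgroup therefore describe the members that passed.

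The 13 members below that minimum are Ifit3b, Oas2, Oas3, Gbp4, Gbp6, Gbp7, Zbp1, Usp18, Rsad2, Cmpk2, Mx1, Mx2 and Ifi44. A fit without the minimum covers all 43 members: 27 of them rose and 0 fell, where 7.18% of 22295 genes rose. Every KIRA6 library lay above every vehicle library for 36 of the 43 members, and the reverse order did not occur. The same held for 20.0% of the 22295 genes above 0 in at least 1 library and for 27.7% of the genes tested. The 7 members whose groups overlapped are Oas1g, Oas2, Adar, Trim25, Samhd1, Helz2 and Ifi35.

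**Figure D1:**
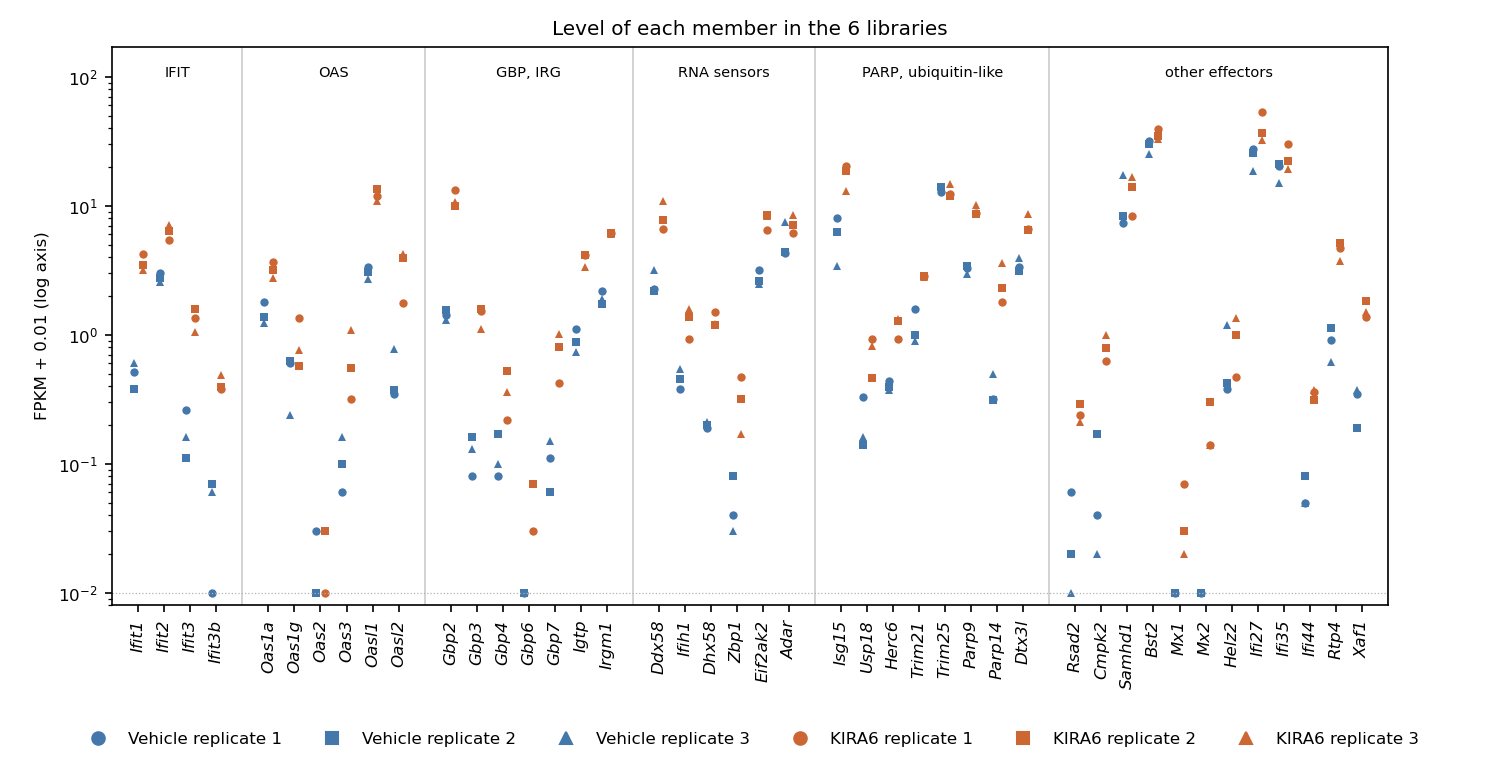
Level of each of the 43 members in every library, as FPKM + 0.01 on a log axis, with vehicle in blue, KIRA6 in orange and 1 marker shape per replicate; points on the dotted line are at 0 FPKM. Every KIRA6 point lies above every vehicle point for 36 members, with a narrow gap in some, such as Bst2 and Gbp4. The points of the groups mix for Oas1g, Oas2, Adar, Trim25, Samhd1, Helz2 and Ifi35.

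The libraries held an estimated 16500300 to 21349850 fragments assigned to genes. Vehicle replicate 3 and KIRA6 replicate 1 stood apart from their groups, with scores of -55.9 and 44.5 on a second principal component that carried 35.1% of the variance. The mitochondrial share of fragments was 1.75% to 2.03% in vehicle and 2.66% to 3.25% with KIRA6. The 8 epithelial markers checked, among them Krt8, Krt18 and Epcam, summed to 1421 to 1553 FPKM in vehicle and 1712 to 1810 FPKM with KIRA6. They did not move as one, and 3 rose, 0 fell and 5 were not called. Krt14 rose from a mean of 22.9 to 162.1 FPKM (adjusted p = 0.000142), Cldn4 from 46.1 to 81.0 FPKM (0.00538) and Epcam from 38.8 to 65.1 FPKM (0.00794). Krt18 was lower in every KIRA6 library and not called (adjusted p = 0.213), and Krt8 overlapped between the groups. Of 10 leukocyte markers 8 were above 0, and they summed to 1.86 to 3.16 FPKM in vehicle and 3.98 to 4.43 FPKM with KIRA6. Most of that sum was Cd68, with 1.66 to 2.61 FPKM in vehicle and 3.06 to 3.80 FPKM with KIRA6. Cd68 rose by limma (adjusted p = 0.047) and was not called by limma-voom. Lyz2, below the minimum, had 0.08, 0.18 and 0.37 FPKM in vehicle and 0.75, 0.50 and 0.46 FPKM with KIRA6. Cd68 and Lyz2 were the 2 leukocyte markers higher in every KIRA6 library, and 0 were lower in every one. Adgre1 and Cd3e were at 0 in all 6 libraries and Ptprc reached at most 0.01 FPKM. Of 8 fibroblast and endothelial markers 7 were above 0 and Lum was at 0. Their sum, mostly Pdgfra, was 0.45 to 0.81 FPKM in vehicle and 1.87 to 3.75 FPKM with KIRA6, and Pdgfra rose (adjusted p = 0.00611). The part of these shifts in the results was not tested, and in bulk RNA more cells of a type and more RNA per cell cannot be told apart.

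To compare the members' regulatory sequence, the stretch before their start sites was searched for the core of the ISRE, written GAAANNGAAA on one strand and TTTCNNTTTC on the other. RefSeq promoters (build GRCm38.p6) were found for 31 of the 43 members, and the 250 bases before the start were read. At least 1 match was present in 14 of these 31 genes (45.2%), against 3.46% of all 27025 genes with a promoter in that table. By subgroup a match was present in 3 of 4 IFIT genes, 3 of 5 OAS genes, 5 of 5 GBP and IRG genes, 0 of 4 RNA sensors, 1 of 5 PARP and ubiquitin-like genes and 2 of 8 other effectors. It was present in 8 of the 18 members that rose, in 2 of 7 that were tested and not called, and in 4 of 6 below the minimum. The core of the GAS element, TTCNNNGAA, which reads the same on both strands, was present in 7 of the 31 (22.6%) and in 8.13% of all genes. A match is a description of letters and not evidence of binding, and no match says only that these letters are not in this window.

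Promoters of 4 genes are shown, 1 that rose from each of the IFIT, ubiquitin-like and GBP groups and Bst2, which has the letters and was not called. Each runs 5′ to 3′ over the 250 bases that end just before the start site, with every ISRE core match in capitals. They lie at chr19:34640639-34640888 on the plus strand, chr4:156200819-156201068 on the minus strand, chr3:142620413-142620662 on the plus strand and chr8:71537473-71537722 on the minus strand, in the order printed.
Ifit1: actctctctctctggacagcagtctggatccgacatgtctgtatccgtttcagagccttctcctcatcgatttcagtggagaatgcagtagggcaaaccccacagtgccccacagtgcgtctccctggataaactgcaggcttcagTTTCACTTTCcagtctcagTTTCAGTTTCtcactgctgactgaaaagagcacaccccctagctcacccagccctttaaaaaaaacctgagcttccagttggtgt
Isg15: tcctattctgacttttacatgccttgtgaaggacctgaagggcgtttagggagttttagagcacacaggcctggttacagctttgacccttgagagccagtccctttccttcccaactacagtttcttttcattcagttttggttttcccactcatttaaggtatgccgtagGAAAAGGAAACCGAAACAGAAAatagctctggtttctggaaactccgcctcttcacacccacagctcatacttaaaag
Gbp2: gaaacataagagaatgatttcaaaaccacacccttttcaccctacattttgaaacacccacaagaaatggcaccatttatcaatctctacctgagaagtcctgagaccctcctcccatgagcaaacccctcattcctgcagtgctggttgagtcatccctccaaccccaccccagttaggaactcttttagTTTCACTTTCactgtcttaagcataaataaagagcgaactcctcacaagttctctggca
Bst2: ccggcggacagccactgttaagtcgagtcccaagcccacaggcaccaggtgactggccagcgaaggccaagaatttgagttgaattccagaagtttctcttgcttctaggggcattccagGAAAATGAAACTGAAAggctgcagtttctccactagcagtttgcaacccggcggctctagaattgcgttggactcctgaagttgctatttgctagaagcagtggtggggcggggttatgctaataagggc
Ifit1 has 2 separate matches, from -104 to -95 and from -85 to -76 counted from the start site. In Isg15 3 matches overlap in 1 run from -78 to -57, and in Bst2 2 matches overlap from -130 to -115. Gbp2 has 1 match, from -59 to -50.

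IFIT proteins bind viral RNA, mainly through its 5′ end, and hold back its translation. All 3 tested IFIT genes rose, with a median log2 fold change of 1.44. Of these Ifit1 and Ifit3, with vehicle means of 0.487 and 0.167 FPKM, passed the minimum only through their KIRA6 libraries. Of all genes tested 15.6% rose, and of those with a vehicle mean below 0.5 FPKM 51.3%. The IFIT genes lie in 1 cluster on chromosome 19, between 34528094 and 34627409 on GRCm39, in the order Ifit2, Ifit3, Ifit3b, Ifit1. Ifit1 (ENSMUSG00000034459) was at 0.50, 0.37 and 0.59 FPKM in vehicle and at 4.25, 3.45 and 3.17 FPKM with KIRA6. The KIRA6 values were all above 3 FPKM and no vehicle value reached 0.6 FPKM, and the log2 fold change was 2.06 ± 0.17 (SE, adjusted p = 0.000945). Ifit2, the most abundant of the cluster in both groups, rose by less in proportion. It had 3.01, 2.76 and 2.56 FPKM in vehicle and 5.44, 6.36 and 7.08 FPKM with KIRA6, or 1.05 ± 0.15 on the log2 scale (SE, adjusted p = 0.00495).

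Ifit3 and Ifit3b are near-identical copies, so fragments may be lost or shared between them and their levels are uncertain. Ifit3 rose from 0.25, 0.10 and 0.15 FPKM to 1.34, 1.57 and 1.04 FPKM, by 1.44 ± 0.18 on the log2 scale (SE, adjusted p = 0.00297). Ifit3b had 0, 0.06 and 0.05 FPKM in vehicle, about 4 fragments in all, and 0.37, 0.38 and 0.48 FPKM with KIRA6, about 49 fragments. Neither copy's groups overlapped. Their promoters both carry the matches TTTCACTTTC and TTTCAGTTTC, at -156 and -122 in Ifit3 and at -188 and -154 in Ifit3b.

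Many but not all proteins of the OAS family sense double-stranded RNA and make 2-5A, the activator of RNase L. RNA levels do not show that activity for any member. Of the 4 tested OAS genes 3 rose and Oas1g was not called. Oasl2 and Oas1g passed the minimum only through their KIRA6 libraries. Of all genes tested 15.6% rose, and of those below 0.5 FPKM in vehicle 51.3%. Oasl1 (ENSMUSG00000041827) had the highest level, at 3.35, 3.04 and 2.70 FPKM in vehicle and 11.8, 13.3 and 10.9 FPKM with KIRA6. The means differed 3.97-fold, and the rise on the log2 scale was 1.83 ± 0.15 (SE, adjusted p = 0.000895). Oasl2, which lies next to it on chromosome 5, had 0.34, 0.36 and 0.77 FPKM in vehicle and 1.76, 3.95 and 4.25 FPKM with KIRA6. The highest vehicle value and the lowest KIRA6 value of Oasl2 came from the 2 libraries that stood apart, and the groups still did not overlap (log2 fold change 1.90 ± 0.33, SE, adjusted p = 0.00885). Oas1a rose from 1.78, 1.35 and 1.23 FPKM to 3.65, 3.17 and 2.73 FPKM (0.92 ± 0.18 on the log2 scale, SE, adjusted p = 0.0129). That call ended without Vehicle replicate 2 (adjusted p = 0.0621) or KIRA6 replicate 2 (0.0621), and with quantile normalization (0.127), in a range of 4.78e-07 to 0.127 over 19 alternatives.

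Oas1g, a close relative of Oas1a whose reads may be shared with it, had 0.59, 0.62 and 0.23 FPKM in vehicle and 1.34, 0.56 and 0.75 FPKM with KIRA6. The groups overlapped, and the 95% interval of its log2 fold change ran from -0.17 to 1.14 (adjusted p = 0.248). Oas3, the largest OAS enzyme, was low but separated, at 0.05, 0.09 and 0.15 FPKM and at 0.31, 0.54 and 1.07 FPKM. Oas2 was barely detected, with about 2 fragments over the vehicle libraries and about 3 over the KIRA6 libraries. A change of Oas2 was not detectable at this depth, since 3 fragments are within what a count of 0 allows.

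Guanylate-binding proteins (GBPs) and immunity-related GTPases (IRGs) coat vacuoles and bacteria inside cells, and interferon gamma is their classical inducer. All 4 tested members rose, with a median log2 fold change of 1.64. Of these Gbp3, with a vehicle mean of 0.113 FPKM, passed the minimum only through its KIRA6 libraries. Of all genes tested 15.6% rose, and of those below 0.5 FPKM in vehicle 51.3%. Gbp2 (ENSMUSG00000028270, chromosome 3, 142326363 to 142343769 on GRCm39) was at 1.42, 1.54 and 1.28 FPKM in vehicle and at 13.3, 9.99 and 10.8 FPKM with KIRA6. It rose by 2.62 ± 0.16 on the log2 scale (SE, adjusted p = 0.000478), and reads may be shared with its copy Gbp2b. Gbp3, on the same chromosome, rose from 0.07, 0.15 and 0.12 FPKM to 1.51, 1.56 and 1.10 FPKM. The order of these 2 genes depends on the scale, since the means of Gbp3 differed 12.3-fold and those of Gbp2 8.02-fold. About 20 fragments lay behind the vehicle values of Gbp3 and about 269 behind those with KIRA6.

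The 2 IRG members sit on chromosome 11. Irgm1, a regulator that keeps other IRG proteins off the cell's own membranes, rose from 2.19, 1.71 and 1.88 FPKM to 6.17, 6.14 and 6.02 FPKM. These KIRA6 values had an SD of 0.0794 FPKM (n = 3), and the log2 fold change was 1.45 ± 0.14 (SE, adjusted p = 0.00139). Igtp, also called Irgm3, rose from 1.09, 0.87 and 0.72 FPKM to 4.15, 4.13 and 3.34 FPKM (1.65 ± 0.17 on the log2 scale, SE, adjusted p = 0.00165). Most of its span overlaps that of its relative Irgm2 on the same strand, so fragments may be lost or shared between them. The low GBP members were higher in every KIRA6 library too. Gbp7 had 0.10, 0.05 and 0.14 FPKM in vehicle and 0.41, 0.80 and 1.00 FPKM with KIRA6, and Gbp4 had 0.07, 0.16 and 0.09 FPKM against 0.21, 0.51 and 0.35 FPKM. Gbp6 had no fragment in vehicle and about 16 with KIRA6, a ratio of 4.78 when vehicle is set to a floor of 3 fragments over the group. That ratio takes the KIRA6 count as exact and is not a lower bound. Gbp4 and Gbp6 belong to a cluster of similar genes on chromosome 5, so their levels are uncertain.

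Among the RNA sensors, RIG-I (Ddx58) and MDA5 (Ifih1) detect viral RNA and signal through MAVS, and LGP2 (Dhx58) modulates both. PKR (Eif2ak2) halts translation when it binds double-stranded RNA, ADAR1 (Adar) edits such RNA, and ZBP1 recognises Z-form nucleic acid. Of the 5 tested members 4 rose and Adar was not called. Ifih1 and Dhx58 passed the minimum only through their KIRA6 libraries. Of all genes tested 15.6% rose, and of those below 0.5 FPKM in vehicle 51.3%. Dhx58 (ENSMUSG00000017830) was low and even across the vehicle libraries, at 0.18, 0.19 and 0.20 FPKM, and reached 1.50, 1.19 and 1.20 FPKM with KIRA6. The means differed 6.83-fold, and the log2 fold change, pulled in by the added 0.5, was 1.38 ± 0.15 (SE, adjusted p = 0.00188). Eif2ak2 rose from 3.14, 2.61 and 2.47 FPKM to 6.42, 8.39 and 8.33 FPKM (1.34 ± 0.17 on the log2 scale, SE, adjusted p = 0.00298).

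Ddx58 had 2.25, 2.18 and 3.14 FPKM in vehicle and 6.55, 7.79 and 10.8 FPKM with KIRA6, and rose by 1.54 ± 0.23 on the log2 scale (SE, adjusted p = 0.00494). Ifih1 moved the same way from a lower level, from 0.37, 0.44 and 0.53 FPKM to 0.91, 1.36 and 1.57 FPKM (0.90 ± 0.19, SE, adjusted p = 0.0182). Ifih1 was no longer called when Vehicle replicate 1 (adjusted p = 0.0649) or 2 (0.0706) was left out. The same happened when KIRA6 replicate 2 (0.0796) or 3 (0.0630) was left out and with quantile normalization (0.0635), in a range of 4.89e-07 to 0.0796 over 18 alternatives. Zbp1, below the minimum, had 0.03, 0.07 and 0.02 FPKM in vehicle and 0.46, 0.31 and 0.16 FPKM with KIRA6. Adar had 4.32, 4.34 and 7.42 FPKM in vehicle and 6.09, 7.05 and 8.49 FPKM with KIRA6, and the overlap came from Vehicle replicate 3. Its log2 fold change was 0.43 (95% interval -0.15 to 1.00, adjusted p = 0.249) and became 0.66 without that library (adjusted p = 0.0317). That library stood apart, so leaving it out also narrows the vehicle group. Adar was called in 3 of 19 alternatives, with adjusted p in a range of 5.025e-06 to 0.574.

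ISG15 is a ubiquitin-like protein that is joined to other proteins, HERC6 is the ligase for it in mice, and USP18 removes it and also damps the type I interferon receptor. TRIM21 and TRIM25 are ubiquitin ligases in antiviral signalling. PARP9 acts with the ligase DTX3L, and PARP14 attaches single ADP-ribose units. Of the 7 tested members of this subgroup 6 rose, and Trim25 was not called. Without Vehicle replicate 2 or KIRA6 replicate 2 the count was 3. Herc6 and Parp14 passed the minimum only through their KIRA6 libraries. Of all genes tested 15.6% rose, and of those below 0.5 FPKM in vehicle 51.3%. Isg15 (ENSMUSG00000035692, chromosome 4, 156283912 to 156285253 on GRCm39) had 8.05, 6.21 and 3.37 FPKM in vehicle and 20.5, 18.7 and 12.9 FPKM with KIRA6. It was the most abundant member that rose, by 1.54 ± 0.32 on the log2 scale (SE, adjusted p = 0.0172). Its call ended without Vehicle replicate 2 (adjusted p = 0.0539) or KIRA6 replicate 2 (0.0773), in a range of 2.37e-07 to 0.0773 over 19 alternatives.

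Parp9 rose from 3.27, 3.43 and 2.97 FPKM to 8.77, 8.68 and 10.03 FPKM, by 1.37 ± 0.14 on the log2 scale (SE, adjusted p = 0.00151). Its partner Dtx3l rose from 3.36, 3.10 and 3.89 FPKM to 6.56, 6.49 and 8.61 FPKM (0.96 ± 0.17, SE, adjusted p = 0.00927), a call that ended without Vehicle replicate 2 (adjusted p = 0.0504). The pair lie head to head on chromosome 16 and overlap by 682 bases on opposite strands, and the strand setting of the counting is not given in the sources used here. Parp14, the next member along that chromosome, rose from 0.31, 0.30 and 0.49 FPKM to 1.78, 2.30 and 3.60 FPKM (1.78 ± 0.24, SE, adjusted p = 0.00387). Parp9, Dtx3l and Parp14 did not overlap between the groups, and the means of Parp14 differed 6.98-fold against 2.84-fold for Parp9.

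Herc6 and Trim21 rose by 0.90 and 1.04 on the log2 scale (adjusted p = 0.0101 and 0.0104), and Trim21 stood at 2.86, 2.85 and 2.79 FPKM in the KIRA6 libraries. The call for Herc6 ended without KIRA6 replicate 2 (adjusted p = 0.0517). That for Trim21 ended without Vehicle replicate 2 (adjusted p = 0.0519) or KIRA6 replicate 2 (0.0526), and with quantile normalization (0.0710). Usp18, below the minimum, had 0.32, 0.13 and 0.15 FPKM in vehicle and 0.91, 0.45 and 0.81 FPKM with KIRA6. Trim25 had 12.7, 13.8 and 13.9 FPKM in vehicle and 12.4, 11.9 and 14.7 FPKM with KIRA6. The groups of Trim25 overlapped, and its 95% interval ran from -0.38 to 0.27 on the log2 scale (adjusted p = 0.805).

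The other effectors are a mixed set of restriction factors and genes of less known function. Of their 7 tested members 2 rose and 5 were not called, where 15.6% of all genes tested rose. Xaf1 passed the minimum only through its KIRA6 libraries, and of all genes tested below 0.5 FPKM in vehicle 51.3% rose. Differences between subgroups were not tested. Rtp4, a chaperone-like protein induced by type I interferon, rose from 0.90, 1.11 and 0.61 FPKM to 4.70, 5.13 and 3.69 FPKM (1.87 ± 0.20 on the log2 scale, SE, adjusted p = 0.00186). Xaf1, a pro-apoptotic antagonist of XIAP, rose from 0.34, 0.18 and 0.36 FPKM to 1.35, 1.83 and 1.48 FPKM (1.37 ± 0.17, SE, adjusted p = 0.00308). Both stood well clear of vehicle in each library.

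The 3 most abundant members of the 43 in vehicle are Bst2, Ifi27 and Ifi35, and none was called. Bst2 (tetherin), which holds budding virus at the cell surface, had 31.9, 30.2 and 25.2 FPKM in vehicle and 39.6, 34.9 and 32.8 FPKM with KIRA6. Its groups did not overlap, but the gap was small, with a 95% interval of -0.06 to 0.65 on the log2 scale (adjusted p = 0.199). Ifi27, a small membrane protein, had 27.5, 25.4 and 18.6 FPKM in vehicle and 53.0, 36.7 and 32.5 FPKM with KIRA6, which is 0.75 ± 0.24 higher on the log2 scale (SE, adjusted p = 0.0618). It was called in 6 of 19 alternatives, among them rescaling to TPM (adjusted p = 0.0400), in a range of 1.62e-05 to 0.178. Ifi35 had 20.3, 21.02 and 14.9 FPKM in vehicle and 29.9, 22.06 and 19.2 FPKM with KIRA6 (95% interval -0.19 to 0.84, adjusted p = 0.323).

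Samhd1, which depletes nucleotides, had 7.29, 8.30 and 17.3 FPKM in vehicle and 8.30, 13.9 and 16.7 FPKM with KIRA6. Helz2, a helicase-like coactivator, had 0.37, 0.41 and 1.19 FPKM in vehicle and 0.46, 0.99 and 1.33 FPKM with KIRA6. In both, Vehicle replicate 3 was high and KIRA6 replicate 1 was low for its group, and the log2 fold changes of 0.28 and 0.32 were not called (adjusted p = 0.648 and 0.548). With both of these libraries left out they became 0.93 and 0.89 (adjusted p = 0.00101 and 0.00576). That pair was chosen for standing apart, so leaving it out also narrows the groups.

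The remaining effectors were below the minimum, and their values were higher in every KIRA6 library. Rsad2 (viperin) and Cmpk2, which make an antiviral nucleotide together and are neighbours on chromosome 12, had means of 0.0200 and 0.0667 FPKM in vehicle and 0.237 and 0.793 FPKM with KIRA6. About 5 and 14 fragments lay behind those vehicle means, and about 61 and 195 behind those with KIRA6. Ifi44 had 0.04, 0.07 and 0.04 FPKM in vehicle and 0.35, 0.30 and 0.36 FPKM with KIRA6. Mx1 and Mx2 encode dynamin-like GTPases that block viruses, and many inbred mouse strains carry defective alleles of them. Neither had a fragment in vehicle, while Mx2 had about 38 and Mx1 about 6 over the KIRA6 libraries. With vehicle set to a floor of 3 fragments over the group, the ratio was 11.4 for Mx2 and 1.79 for Mx1. These ratios take the KIRA6 counts as exact, so they are not lower bounds, and that of Mx1 rests on about 6 fragments. Without the minimum, Rsad2, Cmpk2, Ifi44, Ifit3b and Gbp7 were called higher, and Mx1, Mx2, Gbp4, Gbp6, Oas2, Oas3, Usp18 and Zbp1 were not.

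**Figure D2:**
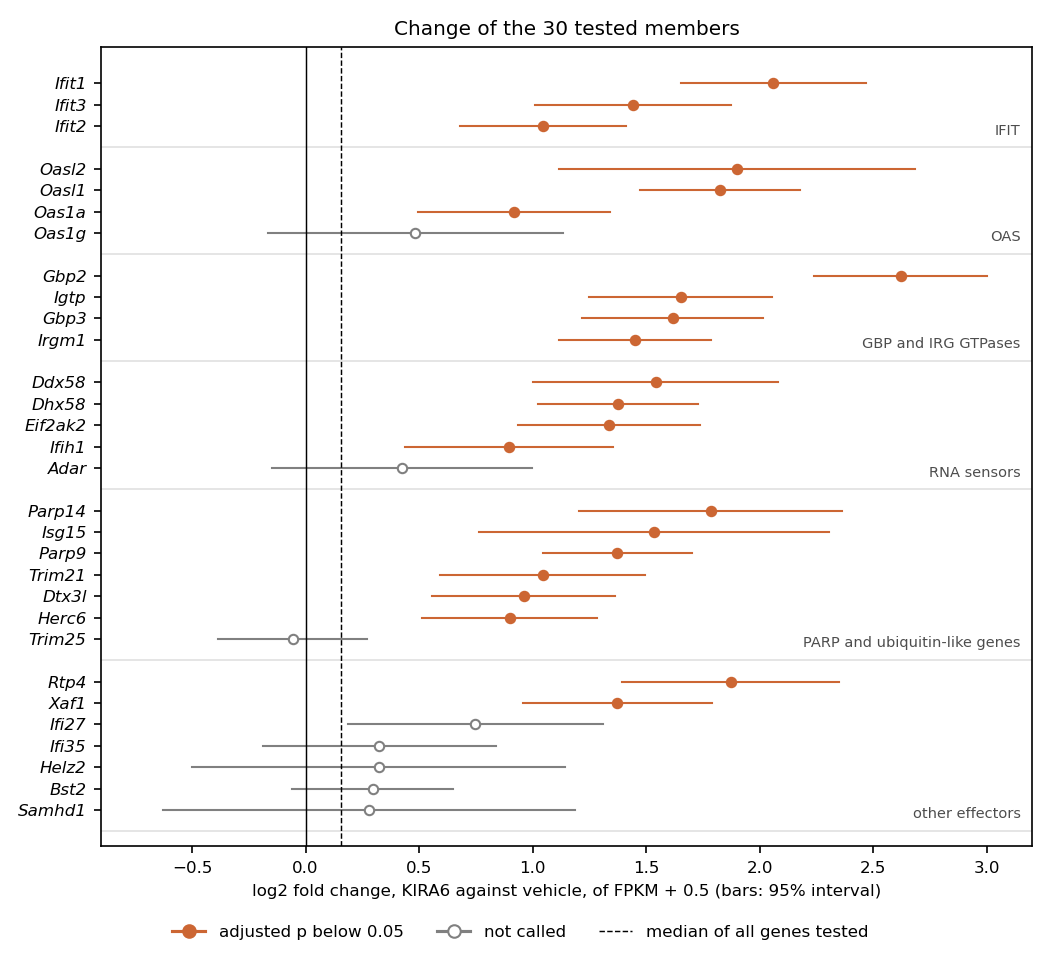
Log2 fold change (KIRA6 against vehicle, of FPKM + 0.5) of the 30 tested members by subgroup, with 95% intervals from limma; filled points were called and the dashed line is the median of all genes tested, 0.16. The 22 called members lie between 0.90 and 2.62, and the open points, among them Trim25 at -0.06 and Bst2 at 0.30, are the 8 that were not called.

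The counts are given next by level in vehicle, which is also the denominator of the fold, and differences between the ranges were not tested. Of the 7 members with a vehicle mean of at least 5 FPKM, namely Adar, Isg15, Trim25, Samhd1, Bst2, Ifi27 and Ifi35, only Isg15 rose, and the median log2 fold change was 0.32. Of the 13 with a vehicle mean from 0.5 to 5 FPKM 12 rose, all but Helz2, with a median of 1.37. Over all genes tested in those ranges, 8.88% of 6208 and 20.2% of 5042 rose, with medians of -0.004 and 0.31, so the share of all genes that rose also went up as the vehicle level went down. The 1 of 7 in the upper range is near the share of all genes there. Of the 23 members below 0.5 FPKM in vehicle 10 were tested and 9 rose. There the count is set partly by the minimum, since 51.3% of all 528 genes tested in that range rose. With KIRA6, the members that rose to a mean above 10 FPKM were Isg15, Oasl1 and Gbp2, at 17.4 ± 3.96, 12.02 ± 1.23 and 11.3 ± 1.71 FPKM (SD, n = 3 each).

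**Figure D3:**
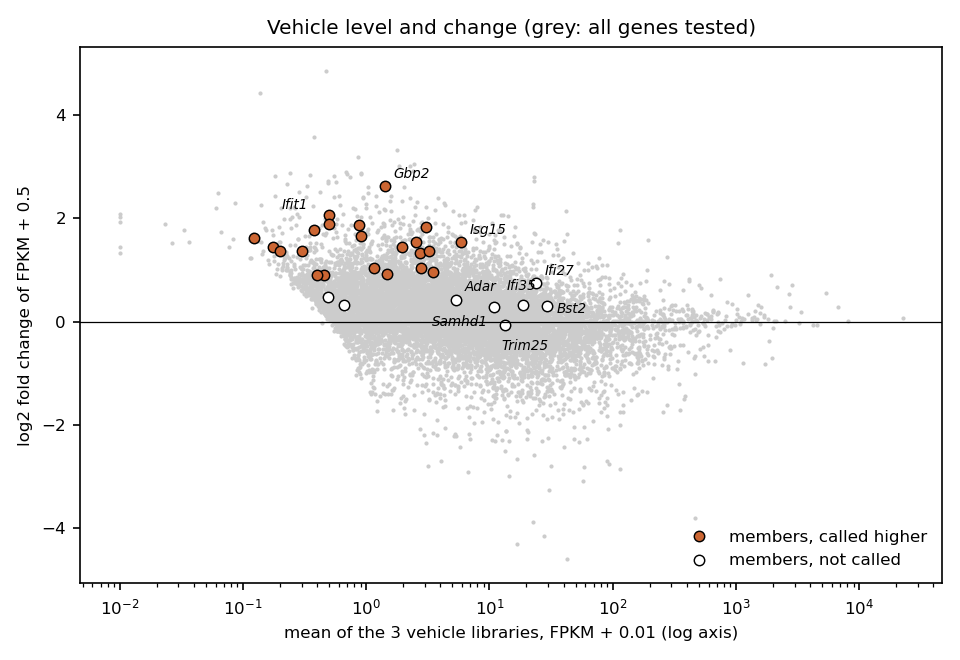
Log2 fold change of FPKM + 0.5 against the mean vehicle level (FPKM + 0.01, log axis) for all 11778 genes tested in grey and the 30 tested members as circles, filled where called. The abundant members Bst2, Ifi27, Ifi35, Trim25, Samhd1 and Adar lie at the right between -0.06 and 0.75, and Gbp2 is at 2.62.

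Exonic length ran with the deviation of the 2 libraries that stood apart: across the 30 tested members Pearson's r between log2 length and the difference of Vehicle replicate 3 from the other vehicle libraries was 0.79 (Spearman's rho 0.81). For KIRA6 replicate 1 against the other KIRA6 libraries r was -0.81 (rho -0.87). Over all genes tested r was 0.25 and -0.31. Genes share a library and its composition, so these are descriptions and not tests. Isg15, with 703 exonic bases the shortest member, was lower in Vehicle replicate 3 by a difference of -0.97 in log2(FPKM + 0.5), and Samhd1, with 9150, was higher there by 1.11. Length did not run with the fold change itself (r = -0.14 across members). Taking out a smooth trend of each library on length left 23 members called higher and 0 lower, with a median of 1.20 against -0.007 over all genes. That step also recentres each library, so a median near 0 over all genes follows from the step itself.

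**Figure D4:**
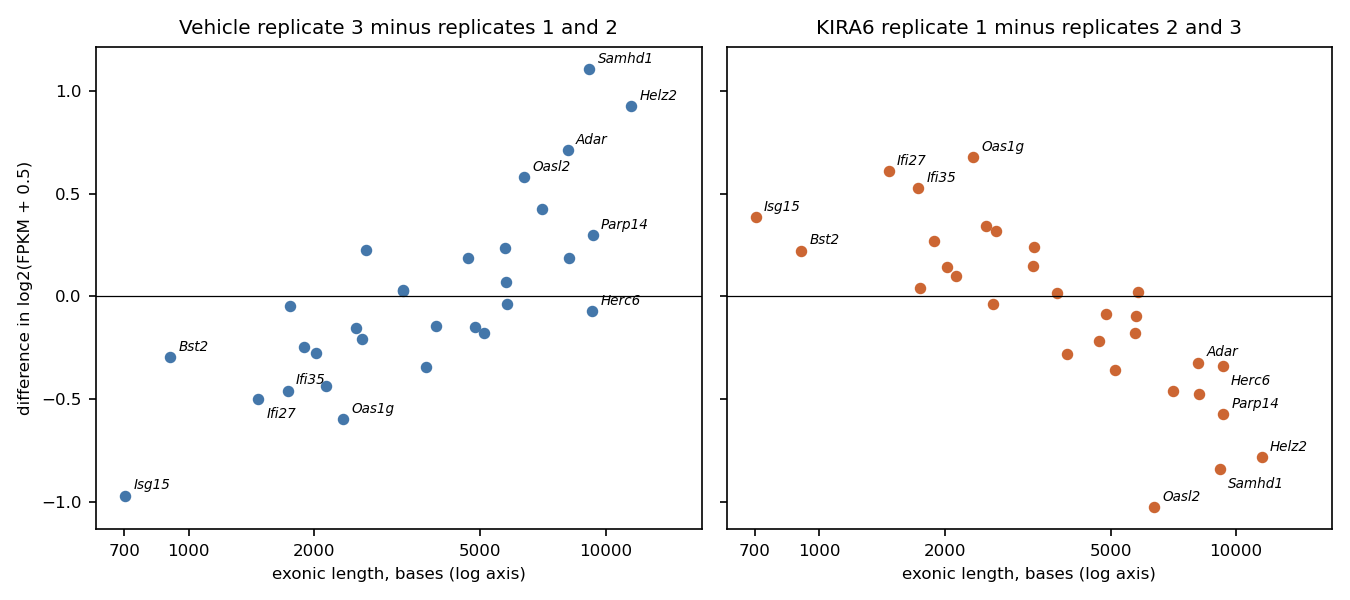
Difference in log2(FPKM + 0.5) of Vehicle replicate 3 from Vehicle replicates 1 and 2 (left) and of KIRA6 replicate 1 from KIRA6 replicates 2 and 3 (right), against exonic length in bases on a log axis, 1 point per tested member. Points climb to the right in vehicle (r = 0.79) and fall to the right with KIRA6 (r = -0.81).

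The rest of the pathway was read from lists that hold none of the members. No interferon transcript was measurable: of 21 interferon genes 19 were at 0 in all 6 libraries, and a count of 0 allows up to 3 fragments. Ifnb1 had about 1 fragment in KIRA6 replicate 1 and Ifnz about 1 in KIRA6 replicate 2. Of 9 tested receptor and Janus kinase genes 5 rose and 0 fell (median log2 fold change 0.74), with 0 lower at an unadjusted p below 0.05 and by limma-voom. Over all genes tested 15.6% rose and 7.98% fell. Tyk2, a kinase of the type I receptor, rose from 1.18, 1.47 and 1.70 FPKM to 5.03, 5.03 and 5.85 FPKM (adjusted p = 0.00165). Ifnlr1 and Il10rb, the chains of the type III interferon receptor, rose by 1.07 and 0.88 on the log2 scale, and Jak2 and Ifngr2 by 1.04 and 0.74. Without Vehicle replicate 2 or KIRA6 replicate 2, 3 of these receptor and kinase genes were called. Ifnar1 had 9.86, 9.15 and 5.99 FPKM in vehicle and 15.4, 12.07 and 12.7 FPKM with KIRA6 (adjusted p = 0.0637).

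Of 11 tested STAT and IRF factors, with a median log2 fold change of 0.97, 7 rose and 1 fell. Over all genes tested 15.6% rose and 7.98% fell. Irf8, a factor of myeloid and lymphoid cells that is low here, fell from 1.23, 1.34 and 0.66 FPKM to 0.09, 0.10 and 0.06 FPKM. Irf7 and Irf5, with vehicle means of 0.11 and 0.39 FPKM, passed the minimum only through their KIRA6 libraries. Irf8, with a KIRA6 mean of 0.083 FPKM, passed it only through vehicle. Irf7, the amplifier of interferon production, went from 0.06, 0.13 and 0.14 FPKM to 1.45, 1.64 and 1.32 FPKM, and Irf1, a factor at the GBP genes, from 7.93, 8.48 and 8.11 FPKM to 22.5, 19.9 and 19.8 FPKM (adjusted p = 0.00117 and 0.00138). Stat2 and Irf9 rose by 1.87 and 1.25 on the log2 scale, and Irf5 by 0.97. Irf3, which sensors activate without new synthesis, had 11.6, 12.4 and 9.61 FPKM in vehicle and 14.8, 12.9 and 11.0 FPKM with KIRA6 (adjusted p = 0.453).

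The next list holds adaptors and kinases between the sensors and interferon, with a median log2 fold change of 0.38. Of 11 tested 2 rose, the endosomal receptor Tlr3 and the kinase Ikbke, and 0 fell by limma's adjusted p or by limma-voom, with 3 lower at an unadjusted p below 0.05. That count of higher genes is near the 15.6% of all genes tested, and the balance turned with scaling: median-ratio scaling called 1 higher and 4 lower, and quantile normalization 1 and 3. Tlr3 had 2.30, 2.10 and 3.35 FPKM in vehicle and 4.86, 4.89 and 6.97 FPKM with KIRA6 (adjusted p = 0.0213). This count depends on single libraries: omitting either of Vehicle replicates 1 and 2 or of KIRA6 replicates 2 and 3 left 0 called higher, and omitting KIRA6 replicate 1 left 1. The DNA sensor gene Cgas and its adaptor Sting1 had log2 fold changes of -0.41 and -0.38 and were not called.

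Relatives of the members in the same gene families were listed too. Of 33 paralogs found among the measured genes, 13 were tested, 9 rose and 0 fell (median log2 fold change 1.19), with 0 lower at an unadjusted p below 0.05 and by limma-voom. Of these 13, 4 had a vehicle mean below 0.5 FPKM, Gbp9 and Trim12c among them, and passed the minimum only through their KIRA6 libraries. Of all genes tested 15.6% rose, and of those below 0.5 FPKM in vehicle 51.3%. Gbp2b rose from 0.47, 0.69 and 0.46 FPKM to 5.36, 4.82 and 4.80 FPKM (adjusted p = 0.000531), Gbp9 by 1.49 on the log2 scale and Trim12c by 2.08. Of 33 tested interferon-stimulated genes of other families (median log2 fold change 0.47) 10 rose and 1, the peptidase gene Lap3, fell, where 15.6% of all genes tested rose and 7.98% fell. Median-ratio scaling gave 6 higher and 2 lower, and quantile normalization 2 and 2. Ube2l6 and Uba7, the conjugating and activating enzymes for ISG15, were the 2 with the smallest p and rose by 1.75 and 0.91 on the log2 scale. Tor3a rose by 0.69. Of the 33, 2 had a vehicle mean below 0.5 FPKM, Uba7 among them, and passed the minimum only through KIRA6. Without Vehicle replicate 1 5 of these genes were called higher, without KIRA6 replicate 3 4, and without Vehicle replicate 2 or KIRA6 replicate 2 3; without any 1 of these 4 libraries Lap3 was not called.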

How the data were processed

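Polyadenylated RNA of 3 vehicle and 3 KIRA6 libraries of 4T1 cells was sequenced with a strand-preserving protocol, per the labels' protocols. HISAT2 2.2.1, cutadapt 1.9.1, DESeq2 1.34.0 and HTSeq 0.6.1 appear, with GRCm39 as the build, in the submitters' processing notes. Settings were not given in those sources. FPKM values were deposited by the authors with 2 decimals, beside exonic length in bases and GRCm39 coordinates. No pair of libraries was identical.

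FPKM times length comes in steps of 1 fragment, which gave each library's depth. In every library 100% of 495 to 621 values checked on genes of 60 to 400 bases came within 0.1 fragment of a whole number. The floor of 3 fragments covers the counting error of a count of 0 only, and the KIRA6 count set against it was taken as exact.

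Log2(FPKM + 0.5) was fitted, for genes whose mean over 6 libraries reached 0.5 FPKM, with limma 3.58.1 in R 4.3.3. The model held only group. Variances were moderated robustly along an intensity trend, tests were two-sided, and p was adjusted over all tested genes by Benjamini-Hochberg. A permutation of 3 against 3 cannot give a p below 0.1. The steps were run on simulated data with independent noise for each gene. Those data lack the shared deviations of the libraries that stood apart, so they do not show the error rate here. Members and lists were chosen with earlier results of these data known, so no list was tested as a set. Values by library are given for the 3 tested members of each subgroup with the smallest adjusted p and for up to 3 not called, and for Ifit3b; of each list up to 3 called genes with the smallest p and Stat2, Irf9, Irf7, Irf1, Irf3, Ifnb1 and Ifnar1. Some genes that this rule names are not reported here. Values beyond this rule, those of Isg15, Gbp3, Ifih1 and the low members among them, were added after they were seen. Promoters came from RefSeq (GRCm38.p6), with no coordinate carried over to GRCm39. For 29 of 31 members, bases after the start were found near the beginning of a GENCODE M21 transcript of that gene. Alternatives changed the pseudocount, the minimum, the scaling, the empirical Bayes settings, the weights, the unit, the block and the libraries.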

Additional observations from a re-analysis of the deposited data

How the results depend on the processing

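Over 19 alternatives, 16 of the 22 called members were called in each one that tested them, and the other 6 lost the call as given beside them. The length correction was chosen after seeing the data; the other 18 were planned. Omitting 1 library at a time gave 17 to 23 members higher. For all genes the range was 817 to 2064 higher and 394 to 1328 lower; without Vehicle replicates 1 or 2 or KIRA6 replicates 2 or 3 the totals were 1622, 1268, 1211 and 1554, against 2783. Leaving out libraries gave 3 to 6 called PARP and ubiquitin-like genes (3 without Vehicle replicate 2 or KIRA6 replicate 2), 3 to 5 receptors and Janus kinases, 0 to 2 sensing adaptors and kinases, and 3 to 11 higher and 0 to 2 lower among other interferon-stimulated genes. No called member turned direction under another scaling, while the balance of calls over all genes did. Median-ratio scaling called 1224 higher and 1556 lower (44.0% of calls higher, against 66.2%) and put the median over all genes at -0.04 instead of 0.16, and quantile normalization called 1132 higher (48.9% of calls) and the length correction 1557 lower (47.4% of calls higher).

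Counts of list members that moved were as follows. Without a minimum, 5 other effectors, 1 sensing adaptor or kinase and 5 other interferon-stimulated genes rose. A minimum of 1 FPKM left 2 RNA sensors and 1 other effector higher, 0 STAT and IRF factors lower and 1 sensing adaptor or kinase lower, as did a pseudocount of 0.1 for that last count (1). Under median-ratio scaling 1 sensing adaptor or kinase rose and 4 fell, against 1 and 3 with quantile normalization and with the length correction, and 1 higher with rescaling to TPM. Median-ratio scaling called 6 other interferon-stimulated genes higher and 2 lower, and quantile normalization 2 and 2; rescaling to TPM and the length correction each called 2 lower. Quantile normalization called 3 receptors and Janus kinases higher.

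Library weights, whose estimation stopped before reaching its tolerance, called 6046 genes higher and 3957 lower. They gave 1 member lower (Trim25, the 1 lower PARP and ubiquitin-like gene), 6 other effectors, 9 receptors and kinases, 7 and 4 sensing genes and 25 and 6 other interferon-stimulated genes. Without Vehicle replicate 3 and KIRA6 replicate 1 together, 4227 genes rose and 2383 fell, and 26 members, 5 other effectors, 9 receptors and kinases, 6 and 2 sensing genes and 21 and 3 other interferon-stimulated genes were called higher and lower. Signs turned for 4 uncalled members: Oas1g to -0.049 with library weights, Trim25 to 0.001 without KIRA6 replicate 2 (from -0.146 to 0.001 over single libraries left out), Helz2 to -0.019 with quantile normalization and Ifi35 to -0.004 without Vehicle replicate 3 and KIRA6 replicate 1.

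Whether replicate numbers pair the samples was not settled. The correlation of deviations was 0.76, -0.47 and 0.74 for numbers 1, 2 and 3. Vehicle replicates 1 and 3 correlated best with the KIRA6 replicate of the same number, and Vehicle replicate 2 with KIRA6 replicate 1 (0.71). Deviations from the mean of 3 libraries are tied to each other, so these values cannot decide it. With the replicate block 2883 genes rose and 1540 fell, 23 members were higher, and 2 sensing genes and 2 other interferon-stimulated genes were lower. Depth limits the members below the minimum, such as Oas2 and Mx1.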
